A study of Mus musculus with 8 samples.

Results

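The 39 genes described here encode the route that carbon from glucose takes through a cell: glucose transporters, the enzymes of glycolysis, the enzymes and carriers of lactate, the gate through which pyruvate enters the mitochondrion, and the enzymes of the TCA cycle. They were picked by gene symbol from their textbook function, with earlier results of these data known, and all 39 were found among the 37263 Ensembl genes that were counted. All 39 also passed the filter on low counts, which 14931 genes passed. Their transcripts were counted in E14 cells, a feeder-independent line of mouse embryonic stem cells (ESCs) that had been kept in medium with 15% serum and LIF, at 4, 16, 24, and 32 hr after transfer to 2i. 2i is a serum-free medium with LIF in which PD0325901 blocks MEK and CHIR99021 blocks GSK3. The labels give 1 mM PD0325901 and 3 mM CHIR99021, units that differ from the µM of the written methods. At each time 1 library was sequenced from 2i and 1 from 2i with 17 µM vitC, 8 libraries in all, without replicate cultures, and every library came from the same line and the same 2 inhibitors. DNA methylation is lost on transfer from serum to 2i, and vitC (ascorbate) is known to enhance the activity of the Tet dioxygenases.

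Glycolysis splits glucose into pyruvate in the cytosol. Pyruvate is then either reduced to lactate, which leaves the cell through monocarboxylate transporters, or oxidized to acetyl-CoA by the pyruvate dehydrogenase complex and fed into the TCA cycle, and pyruvate dehydrogenase kinases close that second route by phosphorylating the complex. Many genes of the glycolytic and lactate steps are textbook targets of the hypoxia-inducible factors (HIFs), which bind a short core motif near their targets and are marked for destruction by prolyl hydroxylases, enzymes of the same iron- and 2-oxoglutarate-dependent class as Tet. ESCs are known for a high rate of glycolysis, and naive cells in 2i for using both glycolysis and respiration.

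RNA was depleted of ribosomal RNA and not selected for poly(A). The libraries held 12940716 to 18434932 counts in 2i and 4753528 to 13157570 with vitC, so that 3 counts, the floor used here, are worth 0.158 to 0.235 CPM (counts scaled to library size) in 2i and 0.224 to 0.643 CPM with vitC. The summed level of 6 ESC markers (Pou5f1, Nanog and others) was 1367 to 1464 CPM in 2i and 1234 to 1358 CPM with vitC, and markers of primitive endoderm summed to at most 6.58 CPM. Single ESC markers moved in opposite ways. In 2i from 4 to 32 hr, Sox2 rose from 144.8 to 325.5 CPM and Esrrb from 149 to 266 CPM. Pou5f1 fell from 505 to 338 CPM, Zfp42 from 172 to 128 CPM, and Utf1 from 19.0 to 2.08 CPM, and Nanog was at 395 and 405 CPM. Trophectoderm markers (Cdx2, Eomes, and Elf5) summed to 3.19 to 14.4 CPM in 2i and 3.00 to 17.3 CPM with vitC and moved with time, Cdx2 being at 8.90 and 10.97 CPM at 4 hr and at 1.04 and 1.08 CPM at 32 hr. A list of 6 fibroblast or feeder markers summed to 116 to 362 CPM in 2i and 98.1 to 667 CPM with vitC, highest at 24 hr in both. Col1a1 (47.6 to 419 CPM) and Col1a2 (39.4 to 234 CPM) made up most of it, while Dcn and Twist2 stayed at or under 3.00 CPM, and the part of either list in the results was not tested. Reads on Lars2 and 2 features that vary with it took 0.0277% and 0.0113% of counts at 4 hr (2i and vitC), 0.206% and 7.11% at 16 hr, 5.92% and 6.37% at 24 hr, and 0.564% and 4.21% at 32 hr. The 4 and 24 hr libraries ran on lane 8 and the 16 and 32 hr libraries on lane 7. In RNA from whole cultures, fewer cells of a type and less RNA per cell cannot be told apart.

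Levels can be compared between genes only per length, as RPKM, which is CPM divided by the kilobases of merged exons. The highest median level over the 8 libraries was that of Slc2a3, a glucose transporter, at 318 RPKM, followed by Pkm, the pyruvate kinase gene, at 238 RPKM and Aldoa, an aldolase, at 220 RPKM. Pkm ranged from 124 to 383 RPKM and Aldoa from 145 to 350 RPKM over the libraries, so these neighbours in the order overlap. The order also depends on the length used: with the longest transcript, the medians were 489 RPKM for Pkm, 414 RPKM for Aldoa, and 368.5 RPKM for Slc2a3. Pdha1, a subunit of pyruvate dehydrogenase, had a median of 121 RPKM, Ldhb 100.3 RPKM, Tpi1 96.9 RPKM, and Ldha 93.7 RPKM. The lowest were Pfkfb3, which makes the activator of phosphofructokinase, at 3.15 RPKM, Pgam1 at 2.71 RPKM, and Pcx, which turns pyruvate into oxaloacetate, at 2.54 RPKM. All 11 TCA cycle genes lay between 10.5 RPKM (Suclg2) and 86.0 RPKM (Mdh1).

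Gapdh, among the most abundant transcripts of most cells, was listed at only 16.4 to 24.9 CPM, a median of 4.85 RPKM. Of its 50-base windows, the length of the reads, 90.4% have an exact match in another annotated gene, and 213 of the 222 genes matched are pseudogenes. Such windows made up 72.2% of Eno1, 68.0% of Pgk1, 41.5% of Pgam1, 30.5% of Pkm, 30.3% of Pdhb, 27.0% of Ldhb, 21.8% of Suclg2, 19.6% of Gpi1, 16.6% of Ldha, 13.5% of Aldoa, and 7.51% of Tpi1. They made up at most 0.0543% of Pfkl and none of Slc16a3, Pdk1, Hk1, Hk2, Idh1, Slc2a1, and Slc2a3. How the counting treated reads that match several genes is not given in the sources used here, so the levels and shares given here for the genes with shared windows, and their places in the order above, are uncertain. The part of shared windows in the ratios between libraries was not tested. Without strand, reads of Pkm, Pdha1, Gpi1, and Pfkm also cannot be told apart from those of genes that overlap 15.3%, 16.1%, 11.5%, and 10.7% of their exon bases.

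**Figure D1:**
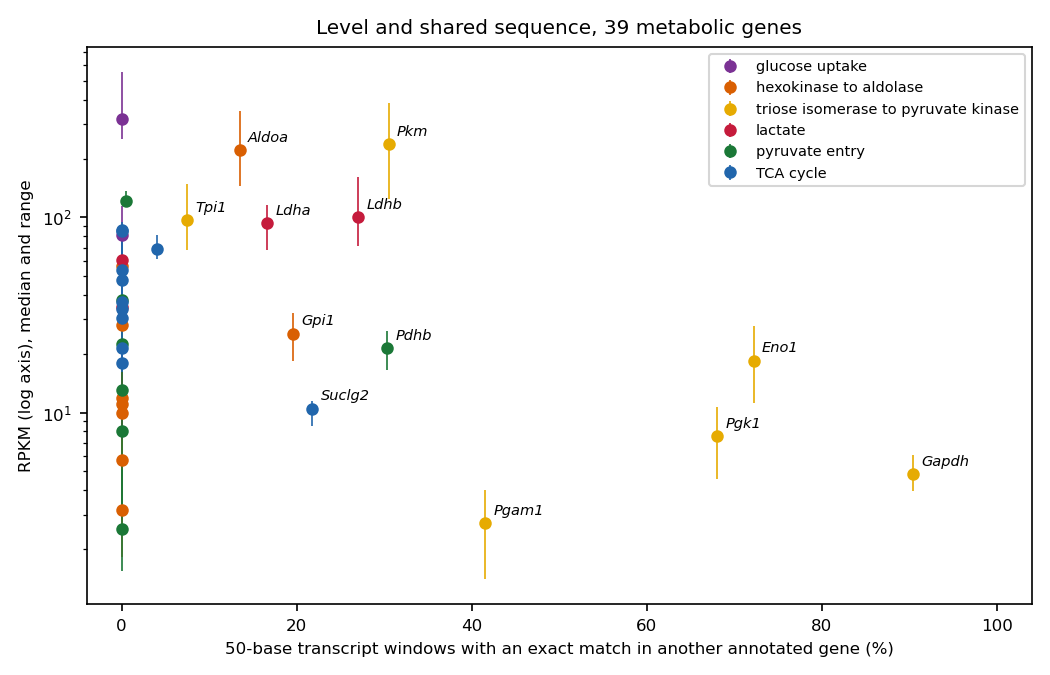
Level of each of the 39 genes (RPKM on a log axis, point at the median and line over the range of the 8 libraries) against the share of its 50-base windows that match another annotated gene exactly. Gapdh stands farthest to the right, at 90.4%, and at a median of 4.85 RPKM.

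With vitC, transcripts of Pfkl, 1 of 3 phosphofructokinase genes, and of the lactate exporter Slc16a3 fell, and most other glycolytic genes had negative fitted changes without passing the test. edgeR's quasi-likelihood test with time as a block, adjusted over 14931 genes (Benjamini-Hochberg), called Pfkl and Slc16a3 lower and no member higher, 2 of 39 members against 0.167% of all genes (0.0603% lower and 0.107% higher). At an unadjusted p under 0.05 there were 16 of 39 members, against 2062 of the 14931 genes. Fitted changes were negative for 34 of 39 members, with a median log2 change of -0.12 against -0.02 over all genes. Their error is the departure of both treatments from a common time course, with 3 residual degrees of freedom, and not a spread between cultures. The error of each gene is moderated towards a trend over all genes.

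By step, fitted changes in the main fit were most negative in the lower part of glycolysis and smallest in the TCA cycle. The median fitted log2 change with vitC was -0.38 for the 2 glucose transporters, -0.19 for the 9 genes from hexokinase to aldolase, -0.59 for the 6 from triose isomerase to pyruvate kinase, and -0.42 for the 4 of lactate. It was -0.08 for the 7 genes of pyruvate entry and -0.02 for the 11 of the TCA cycle. Among the 17 genes of glucose uptake and glycolysis 16 were negative, Hk1 being the exception, and among the TCA cycle genes 8 of 11. The first place of lower glycolysis depended on the libraries used. In lane 7 alone the medians were -0.66 for glucose transporters, -0.54 for lactate, and -0.53 for triose isomerase to pyruvate kinase. Without the 24 hr pair they were -0.40 for the transporters and -0.38 for triose isomerase to pyruvate kinase. That stretch stayed the most negative in lane 8 alone and when another time was left out. The difference between these groups was not tested.

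Levels with vitC were below those in 2i at all 4 times for 12 of 39 members, against 10.4% of all genes. These 12 were Pfkl, Pfkp, Aldoa, Aldoc, Tpi1, Pgk1, Pgam1, Eno1, Ldha, Slc16a3, Dlat, and Idh2, and no member was above at all 4 times (11.3% of all genes). For 5 members, Pfkl, Aldoa, Pgk1, Eno1, and Ldha, every library with vitC lay below every 2i library, which held for 1.13% of all genes, and for no member did every vitC library lie above (1.34%).

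By time, the medians of vitC against 2i lay nearest to equal levels at 4 hr for glycolysis and lactate. The median log2 ratio of vitC to 2i over the 39 members was -0.09, -0.28, -0.15, and -0.16 at 4, 16, 24, and 32 hr. For the 6 genes from triose isomerase to pyruvate kinase it was -0.25, -0.92, -0.80, and -0.37 at these times, for the 4 lactate genes -0.16, -0.69, -0.55, and -0.42, and for the TCA cycle -0.07, -0.04, 0.04, and 0.09. Over all genes tested these medians lay between -0.01 and 0.01. Among the 17 genes of glucose uptake and glycolysis, the 95% counting interval of the ratio lay wholly below equal levels for 8, 12, 11, and 11 genes at the 4 times. Over all genes such intervals made up 21%, 25.8%, 18.6%, and 22.5%. Above equal levels there were 3, 1, 1, and 1 of the 17, against 22.2%, 23.4%, 20.2%, and 22.9% of all genes. These intervals cover counting error only. The change of the vitC effect from 4 to 32 hr, fitted as a line over hours with 2 residual degrees of freedom, was called for 0 members and for 0% of all genes by edgeR, with 2 of 39 members and 431 genes at an unadjusted p under 0.05, and DESeq2 called 0 members as well.

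**Figure D2:**
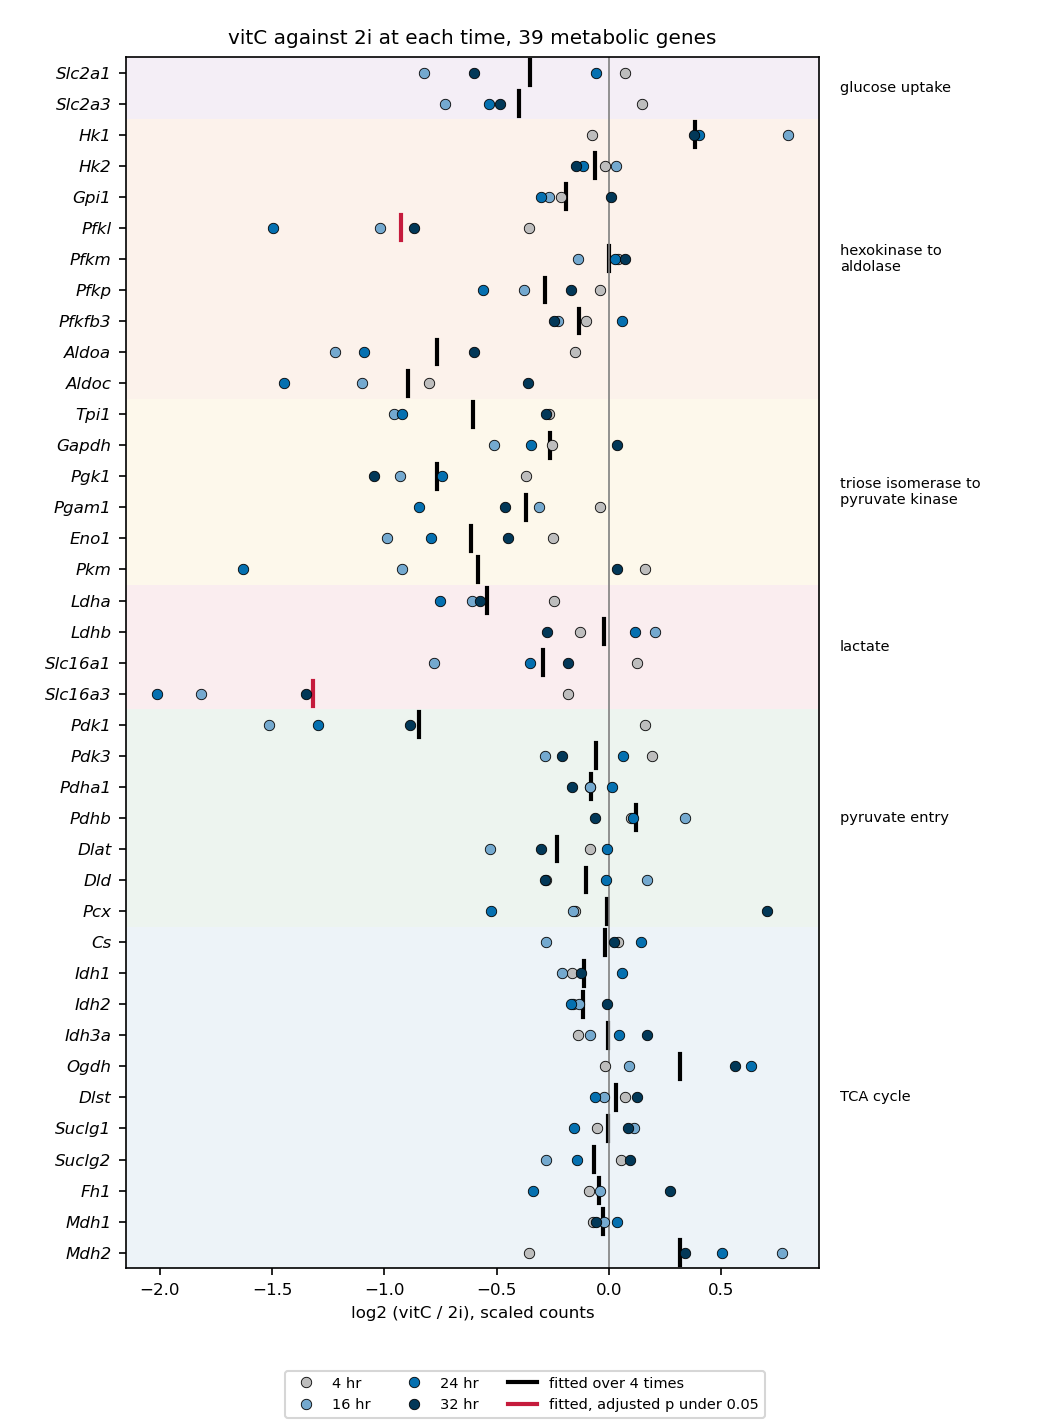
Ratio of vitC to 2i on the log2 scale for each of the 39 genes, 1 point for each time (grey at 4 hr to dark blue at 32 hr), with a bar at the fitted change, red where the adjusted p was under 0.05. The points of Pfkl, Aldoa, Eno1, Pgk1, Ldha, and Slc16a3 lie to the left of 0, and those of most TCA cycle genes lie on both sides of it.

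Promoter sequences are shown for the 2 genes called with vitC and for 4 glycolytic, lactate, and pyruvate genes with fitted falls. All the printed stretches hold a core motif that HIF is known to bind. Tpi1, which had a fitted fall but holds no such motif, is not printed. Each stretch is the 150 bases before an annotated start of transcription in RefSeq (GRCm38.p6), 5′ to 3′ on the strand of the gene. Capitals mark ACGTG or GCGTG on either strand, so that CACGT and CACGC are the same motifs read on the other strand, and a CACGTG holds ACGTG on both.
Slc16a3: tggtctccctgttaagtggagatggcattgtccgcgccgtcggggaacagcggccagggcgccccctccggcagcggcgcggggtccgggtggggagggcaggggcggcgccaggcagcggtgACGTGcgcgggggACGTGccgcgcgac
Ldha: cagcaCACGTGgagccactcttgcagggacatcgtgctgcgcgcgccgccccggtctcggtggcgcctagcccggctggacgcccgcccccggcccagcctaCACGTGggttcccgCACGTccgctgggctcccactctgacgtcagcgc
Pgk1: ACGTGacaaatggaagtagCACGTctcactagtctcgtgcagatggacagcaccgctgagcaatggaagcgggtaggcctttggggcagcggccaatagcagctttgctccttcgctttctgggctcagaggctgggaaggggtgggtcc
Aldoa: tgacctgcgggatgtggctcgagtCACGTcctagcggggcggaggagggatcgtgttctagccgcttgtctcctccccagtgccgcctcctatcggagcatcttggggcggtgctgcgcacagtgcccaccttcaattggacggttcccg
Pfkl: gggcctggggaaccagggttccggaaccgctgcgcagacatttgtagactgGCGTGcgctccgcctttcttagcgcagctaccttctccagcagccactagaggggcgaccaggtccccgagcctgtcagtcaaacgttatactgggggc
Pdk1: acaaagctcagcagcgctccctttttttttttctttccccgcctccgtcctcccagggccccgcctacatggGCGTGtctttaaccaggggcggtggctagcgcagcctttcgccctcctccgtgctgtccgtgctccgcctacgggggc

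These stretches lie at chr11:120948917-120949066 for Slc16a3 and chr7:46845654-46845803 for Ldha, both on the plus strand, at chrX:106186950-106187099 (plus) for Pgk1 and chr7:126799255-126799404 (minus) for Aldoa, and at chr10:78009808-78009957 (minus) for Pfkl and chr2:71873074-71873223 (plus) for Pdk1. Ldha and Pdk1 have 2 annotated windows and Aldoa has 3, and the one with the most motifs upstream is printed. In Slc16a3 both copies of ACGTG lie on the strand of the gene, 27 and 14 bases before the start. Ldha holds CACGTG at 2 places and a further ACGTG on the other strand, whereas Pfkl and Pdk1 hold GCGTG and no ACGTG here. In the full RefSeq windows of 300 bases, which 37 of the 39 genes have, ACGTG was found in 19, against 21.8% of 27025 genes, and GCGTG in 23, against 35.2%. CACGTG was found in 6 of 37, against 8.09% of genes. The 27025 genes include those that did not pass the filter on low counts. A gene was scored if any of its windows, 6 for Ogdh, held the motif. These shares are thus not matched for expression or for the number of windows. By group, ACGTG was present in 1 of 1 glucose transporter gene, 6 of 9 genes from hexokinase to aldolase, 4 of 6 from triose isomerase to pyruvate kinase, 3 of 4 lactate genes, 3 of 7 of pyruvate entry, and 2 of 10 of the TCA cycle. The motifs were not confined to genes with fitted falls. Of the members with positive fitted changes with vitC, Hk1, Pdhb, and Ogdh hold both ACGTG and GCGTG, Mdh2 holds GCGTG only, and Dlst holds neither. Tpi1, with a fitted change of -0.60, also holds neither. A match describes the letters of the window only, and no binding was measured.

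Glucose enters ESCs through Slc2a1 (GLUT1) and Slc2a3 (GLUT3). In 2i, Slc2a3 stood at 1824 CPM at 4 hr and then at 4008, 2946, and 3061 CPM. With vitC its levels were 2021, 2420, 2033, and 2189 CPM at the same times. The 2i libraries from 16 hr on were the 3 highest, and the 4 hr 2i library was the lowest of all 8, so the conditions overlap. Slc2a3 rose between 4 and 16 hr in the fit to both treatments (log2 change 0.68 ± 0.19 SE, edgeR adjusted p = 0.0312), by 1.14 in 2i and 0.26 with vitC in the single ratios. Slc2a1 was at 343, 402, 245, and 328 CPM in 2i and at 360, 227, 235, and 216 CPM with vitC. It was thus lower with vitC at 16 and 32 hr, and its counting interval at 24 hr covered equal levels. Fitted changes with vitC were -0.40 ± 0.14 for Slc2a3 (adjusted p = 0.201) and -0.35 ± 0.14 for Slc2a1 (adjusted p = 0.28), neither past the threshold. For Slc2a1 the change turned to 0.01 in the fit to lane 8 alone.

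The first enzyme of glycolysis, hexokinase, traps glucose as its phosphate, and both of its genes rose over time. Hk1 rose from 31.5 CPM at 4 hr to 59.0, 77.8, and 91.1 CPM at 16, 24, and 32 hr in 2i. With vitC it rose from 29.9 CPM to 102, 103, and 118 CPM. Both 4 hr libraries were the lowest, and from 16 hr on each vitC library lay above its 2i partner. Between 4 and 24 hr the fitted change was 1.52 ± 0.19 (adjusted p = 0.000311), the largest rise of any member at that time, and between 4 and 32 hr it was 1.74 ± 0.18 (adjusted p = 7.38e-05). With vitC, Hk1 had the largest positive change of the 39 members, 0.38 ± 0.13, which did not pass (adjusted p = 0.198). When the 4 hr pair was left out it was 0.53 and passed (adjusted p = 0.0457). Hk1 passed in only 2 of 16 alternatives, this one and the fit without a filter on low counts, with changes from 0.17 to 0.58.

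Hk2, the hexokinase of most growing cells, was more abundant per length, with a median of 56.4 RPKM against 9.90 RPKM for Hk1. Its levels were 256, 327, 368, and 394 CPM in 2i and 252, 334, 340, and 356 CPM with vitC. These pairs differed little at every time, with ratios of vitC to 2i from 0.904 to 1.02. Hk2 rose by 0.48 ± 0.13 between 4 and 24 hr (adjusted p = 0.0228), and its vitC change was -0.06 ± 0.09. Hk1 made up 7.95% of the summed RPKM of both genes at 4 hr in 2i and 13.9% at 32 hr, and with vitC its share went from 7.66% at 4 hr to 18.9% at 32 hr. With the longest transcript as length, the share of Hk1 went from 13.7% to 23.0% in 2i and from 13.25% to 30.0% with vitC.

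Phosphofructokinase commits the sugar to glycolysis, and its subunits are encoded by Pfkl, Pfkm, and Pfkp. Pfkl stood at 210 CPM at 4 hr in 2i and then at 249, 285.5, and 249 CPM. With vitC it stood at 164, 123, 101, and 137 CPM. Every vitC library lay below every 2i library, and the distance was widest at 24 hr. The log2 ratio there was -1.50 (95% counting interval -1.64 to -1.36), against -0.36 (-0.43 to -0.28) at 4 hr. The fitted change was -0.93 ± 0.15 (adjusted p = 0.0336), but omission of the 16, 24, or 32 hr pair left adjusted p-values of 0.108, 0.14, and 0.179. The Pfkl call was also lost with the Lars2 share as a covariate (-0.85, adjusted p = 0.269), in lane 8 alone (-0.91, adjusted p = 0.287), and without a time term (-0.92, adjusted p = 0.39).

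Neither Pfkm nor Pfkp passed the test with vitC, with fitted changes of -0.00 for Pfkm and -0.29 ± 0.11 for Pfkp (adjusted p = 0.999 and 0.256). Pfkp was at 115, 152, 216, and 232 CPM in 2i and 112, 117, 146, and 207 CPM with vitC, and rose by 0.65 ± 0.15 between 4 and 24 hr (adjusted p = 0.0113). After a correction for GC content and length that rise was 0.37 and did not pass (adjusted p = 0.138). Pfkl went from 63.6% of the summed RPKM of the 3 subunits at 4 hr to 53.4% at 32 hr in 2i, and from 57.7% to 39.4% with vitC.

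Aldolase cleaves the 6-carbon sugar into trioses. Aldoa was at 646, 1018, 898, and 968 CPM in 2i and at 583, 437, 422, and 637 CPM with vitC. Its 2i libraries from 16 hr on were the 3 highest, and the lowest 2i value, at 4 hr, still lay above the highest vitC value, at 32 hr. The fitted vitC change was -0.77 ± 0.15 (adjusted p = 0.0562), just above the threshold. Aldoc, a second aldolase at far lower levels, was at 10.4, 32.7, 26.9, and 28.4 CPM in 2i and at 5.97, 15.3, 9.87, and 22.2 CPM with vitC. It rose between 4 and 24 hr by 1.12 ± 0.26 (adjusted p = 0.0109), and within each treatment the 4 hr library was the lowest. Its fitted vitC change was -0.90 ± 0.18 (adjusted p = 0.0562), and its groups overlapped. Aldoc made up 0.905% to 3.03% of the summed RPKM of both aldolases in all 8 libraries.

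The other genes of this stretch were Gpi1, the isomerase after hexokinase, and Pfkfb3. Gpi1 ranged from 118 to 210 CPM and rose by 0.72 ± 0.14 between 4 and 32 hr (adjusted p = 0.00293). Pfkfb3 ranged from 21.3 to 32.2 CPM and passed no test.

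The lower part of the pathway, from triose isomerase to pyruvate kinase, is where ATP is made. All 6 genes had negative fitted changes with vitC, from -0.26 for Gapdh to -0.77 for Pgk1, and none passed the threshold. The nearest were Eno1, the enolase gene, at -0.61 ± 0.12 (adjusted p = 0.0562), Pgk1, phosphoglycerate kinase, at -0.77 ± 0.16 (adjusted p = 0.0635), and Tpi1, triose-phosphate isomerase, at -0.60 ± 0.13 (adjusted p = 0.0686). Gapdh, Eno1, and Pgk1 are the genes of this stretch whose windows mostly match other genes, chiefly pseudogenes, and Pgk1 lay at only 10.3 to 23.9 CPM.

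Pkm had the widest single difference of this stretch. Its libraries were at 1272, 1614, 1916, and 1081 CPM in 2i and 1423, 852, 620, and 1106 CPM with vitC. The 24 hr 2i library was the highest and the 24 hr vitC library the lowest, a log2 ratio of -1.63 (-1.69 to -1.57), whereas at 4 hr it was 0.16 (0.13 to 0.19) and at 32 hr 0.03 (-0.00 to 0.07). Its fitted change with vitC was -0.58 ± 0.23 (adjusted p = 0.288). Pgam1, phosphoglycerate mutase, was at 7.97, 5.73, 5.01, and 6.31 CPM in 2i and at 7.76, 4.61, 2.79, and 4.58 CPM with vitC. The 4 hr libraries were the highest, and between 4 and 24 hr it fell by 1.00 ± 0.33 (adjusted p = 0.0477), a call that was lost in 10 of 13 alternatives.

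Lactate dehydrogenase interconverts pyruvate and lactate. Ldha, whose subunit is linked to lactate production, was at 337, 381, 380, and 350 CPM in 2i and 284, 250, 226, and 236 CPM with vitC. All 4 vitC libraries lay below all 4 of 2i, with log2 ratios of -0.25, -0.61, -0.75, and -0.57. The fitted change was -0.54 ± 0.11 (adjusted p = 0.0512), just short of the threshold. Ldhb, whose subunit favours lactate use, was at 123, 130, 165, and 254 CPM in 2i and 112, 150, 179, and 210 CPM with vitC. The 32 hr libraries were the highest in both, and Ldhb rose by 0.55 ± 0.15 between 4 and 24 hr (adjusted p = 0.0233) and by 0.98 ± 0.15 between 4 and 32 hr (adjusted p = 0.000807). Its vitC change was -0.02 ± 0.11. Ldha went from 56.5% to 39.6% of the summed RPKM of both genes in 2i and from 54.5% to 34.8% with vitC. With the longest transcript as length, its share went from 66.3% to 49.8% in 2i.

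Lactate leaves the cell through Slc16a3 (MCT4), known as the exporter of glycolytic cells, and crosses in both directions through Slc16a1 (MCT1). Slc16a3 stood at 247, 244, 157, and 212 CPM in 2i. With vitC it stood at 217 CPM at 4 hr and then at 69.3, 39.03, and 83.4 CPM. The 3 vitC libraries from 16 hr on were the lowest of the 8, and the 4 hr vitC library lay among those of 2i. The log2 ratio of vitC to 2i was -0.18 (-0.25 to -0.12) at 4 hr. From 16 hr on it was -1.82 (-1.96 to -1.68), -2.01 (-2.24 to -1.79), and -1.35 (-1.45 to -1.24). Its fitted change, -1.32 ± 0.23 (adjusted p = 0.0449), was the largest of any member. Without the 16, 24, or 32 hr pair the change was -1.13, -1.11, and -1.30 with adjusted p-values of 0.14, 0.23, and 0.184, and without the 4 hr pair both Slc16a3 and Pfkl passed. The Slc16a3 call was also lost with the GC and length offset (adjusted p = 0.0612), with the Lars2 share as a covariate (-1.001, adjusted p = 0.276), in lane 8 alone (-1.02, adjusted p = 0.398), and without a time term (adjusted p = 0.965).

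Slc16a1 was at 298, 366, 275, and 262 CPM in 2i and 325, 213, 215, and 231 CPM with vitC. At 4 hr the vitC library was the higher one, and from 16 hr on the lower one, with a fitted change of -0.30 ± 0.13 (adjusted p = 0.337). Per length, Slc16a3 made up 40.8% of the summed RPKM of both transporters at 4 hr in 2i and 40.3% at 32 hr. With vitC it made up 35.8% at 4 hr, 13.1% at 24 hr, and 23.1% at 32 hr.

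**Figure D3:**
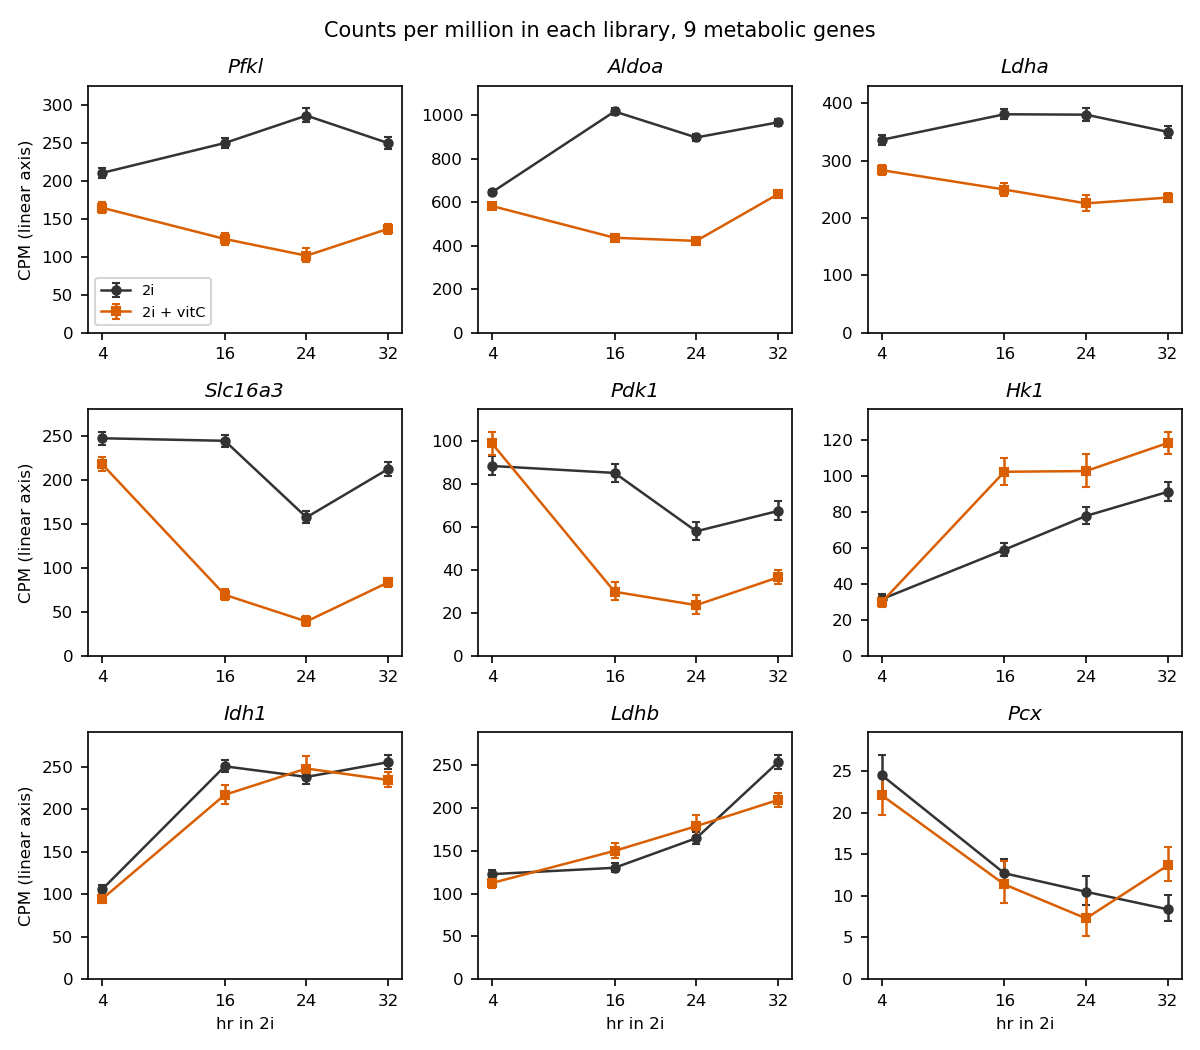
Level in each library (CPM, linear axes from 0) of 9 genes against hours in 2i, without vitC (black circles) and with vitC (orange squares), 1 library a point, bars being 95% Wilson intervals of the counts. Pfkl, Aldoa, and Ldha with vitC stay below 2i at all 4 times, Slc16a3 and Pdk1 part after 4 hr, Hk1 and Idh1 climb in both, Ldhb is highest at 32 hr, and Pcx is highest at 4 hr.

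Entry of pyruvate into the mitochondrial route is held back by the pyruvate dehydrogenase kinases. Pdk1 was at 88.3, 85.1, 58.0, and 67.4 CPM in 2i. With vitC it was at 98.8 CPM at 4 hr and at 29.8, 23.6, and 36.5 CPM from 16 hr on. The 4 hr vitC library was the highest of all 8 and the later vitC libraries were the 3 lowest, with log2 ratios of 0.16, -1.51, -1.30, and -0.89. The fitted vitC change was -0.85 ± 0.21 (adjusted p = 0.0981), and without the 4 hr pair it was -1.22 (adjusted p = 0.00496). Pdk1 passed in only 3 of 16 alternatives, with changes from -1.22 to -0.48. Pdk3, a related kinase, was at 32.8, 43.0, 32.0, and 33.4 CPM in 2i and 37.5, 35.3, 33.5, and 28.9 CPM with vitC, without a steady order, and its vitC change was -0.06 ± 0.13. The share of Pdk1 in their summed RPKM went from 47.0% at 4 hr to 39.9% at 32 hr in 2i and from 46.5% to 29.4% with vitC, with its lowest value, 18.8%, at 24 hr.

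Between 4 and 24 hr, Pdk1 fell by 1.36 ± 0.30 (adjusted p = 0.00858) and Slc16a3 by 1.59 ± 0.32 (adjusted p = 0.00539) in the fit to both treatments. The single log2 ratios to 4 hr were -0.61 in 2i and -2.07 with vitC for Pdk1, and -0.65 in 2i and -2.48 with vitC for Slc16a3. Without a treatment term neither passed (adjusted p = 0.133 and 0.232), and with the Lars2 share as a covariate the direction of both turned, to 0.45 for Pdk1 and 0.012 for Slc16a3.

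Pcx fell over time in both conditions. It was at 24.5, 12.7, 10.5, and 8.39 CPM in 2i and 22.1, 11.4, 7.29, and 13.7 CPM with vitC. Both 4 hr libraries lay above all later ones, and the change between 4 and 24 hr was -1.35 ± 0.28 (adjusted p = 0.00607), with a vitC change of -0.01 ± 0.20. Of the pyruvate dehydrogenase complex, Pdha1 (430 to 511 CPM), Dlat (98.8 to 143 CPM), and Dld (130 to 170.5 CPM) passed no test at any time. Pdhb (63.9 to 101 CPM) fell by 0.45 ± 0.14 between 4 and 16 hr with an adjusted p at the threshold (0.0499), a call that was lost in 11 of 12 alternatives.

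The TCA cycle oxidizes acetyl-CoA, and most of its genes stayed within a narrow range over the 8 libraries. No TCA cycle gene was called with vitC, where 0.167% of all genes were, and between 4 and 24 hr 1 of 11 was, where 20.5% of all genes were. That gene was Idh1, the cytosolic isocitrate dehydrogenase, which makes NADPH and 2-oxoglutarate outside the mitochondrion. It was at 106, 251, 238, and 256 CPM in 2i and 94.6, 217, 248, and 235 CPM with vitC. Both 4 hr libraries lay below all others, and the rise between 4 and 24 hr was 1.28 ± 0.14 (adjusted p = 0.000125). The vitC change of Idh1 was -0.11 ± 0.10.

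Idh2, the mitochondrial NADP enzyme, rose later. It ranged from 105 to 146 CPM up to 24 hr and stood at 218 CPM in 2i and 217 CPM with vitC at 32 hr. It was the only member called between 16 and 32 hr, with a rise of 0.99 ± 0.13 (adjusted p = 0.00753), 1 of 39 against 0.583% of all genes (0.335% higher and 0.248% lower). Both of these pairs of libraries ran on lane 7. Ogdh, which takes 2-oxoglutarate onward, ranged from 143 to 239 CPM and rose by 0.57 ± 0.17 between 4 and 16 hr (adjusted p = 0.0412). Mdh2, the mitochondrial malate dehydrogenase, was at 184, 137, 177, and 200.5 CPM in 2i and 144, 234, 251, and 254 CPM with vitC. It was lower with vitC at 4 hr and higher at the later times, with a fitted change of 0.31 ± 0.15 (adjusted p = 0.379). The others (Cs, Idh3a, Dlst, Suclg1, Suclg2, Fh1, and Mdh1) had fitted vitC changes between -0.07 and 0.03 and passed no test of time.

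Over time, the share of members called was close to that of all genes. Between 4 and 24 hr, compared within lane 8, 6 of 39 members rose (Hk1, Idh1, Aldoc, Pfkp, Ldhb, and Hk2) and 4 fell (Slc16a3, Pdk1, Pcx, and Pgam1), against 11.5% and 8.98% of all genes (20.5% in either direction), so these calls describe single genes and not the list. Their fitted median over all 39 was -0.11, against 0.01 over all genes. Between hexokinase and aldolase 4 of 9 genes rose, and the median of the 9 was 0.31. Between 4 and 16 hr 5 members rose and 2 fell (9.16% and 7.24% of all genes, 16.4% in all), and between 4 and 32 hr 9 rose and 3 fell (13.5% and 11.8%, 25.3% in all). These 3 comparisons share the 4 hr libraries, and from 4 to 16 or 32 hr time and lane cannot be told apart. The 9 that rose by 32 hr were Hk1, Hk2, Gpi1, Pfkm, Pfkp, Aldoc, Ldhb, Idh1, and Idh2, and the 3 that fell were Slc16a3, Pdk1, and Pcx. The share of reads on Lars2 was lowest in the 4 hr libraries, and with that share as a covariate 0 members were called at 24 hr, 1 at 16 hr, and 1 at 32 hr, a term that overlaps with time. The share of all genes called with this covariate is not given here.

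**Figure D4:**
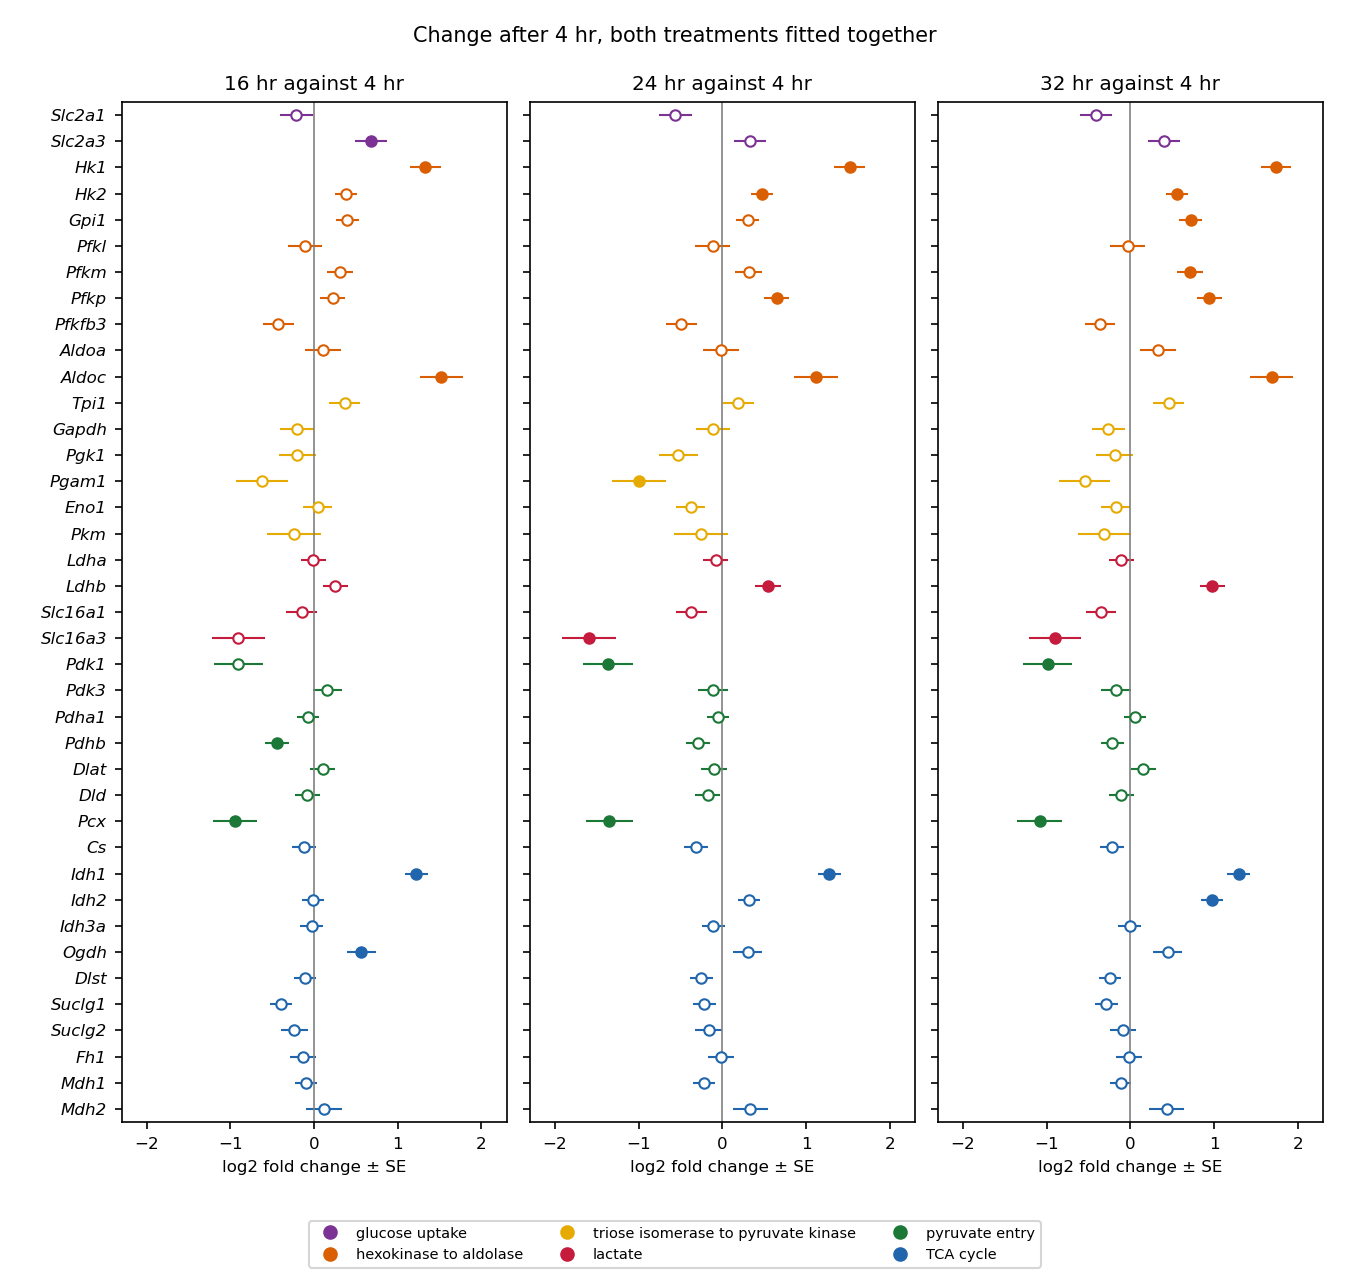
Fitted log2 change ± SE after 4 hr for the 39 genes, both treatments fitted together, filled where the adjusted p was under 0.05 and coloured by step. Hk1, Aldoc, and Idh1 lie to the right of 0 in all 3 panels and Pcx to the left.

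**Figure D5:**
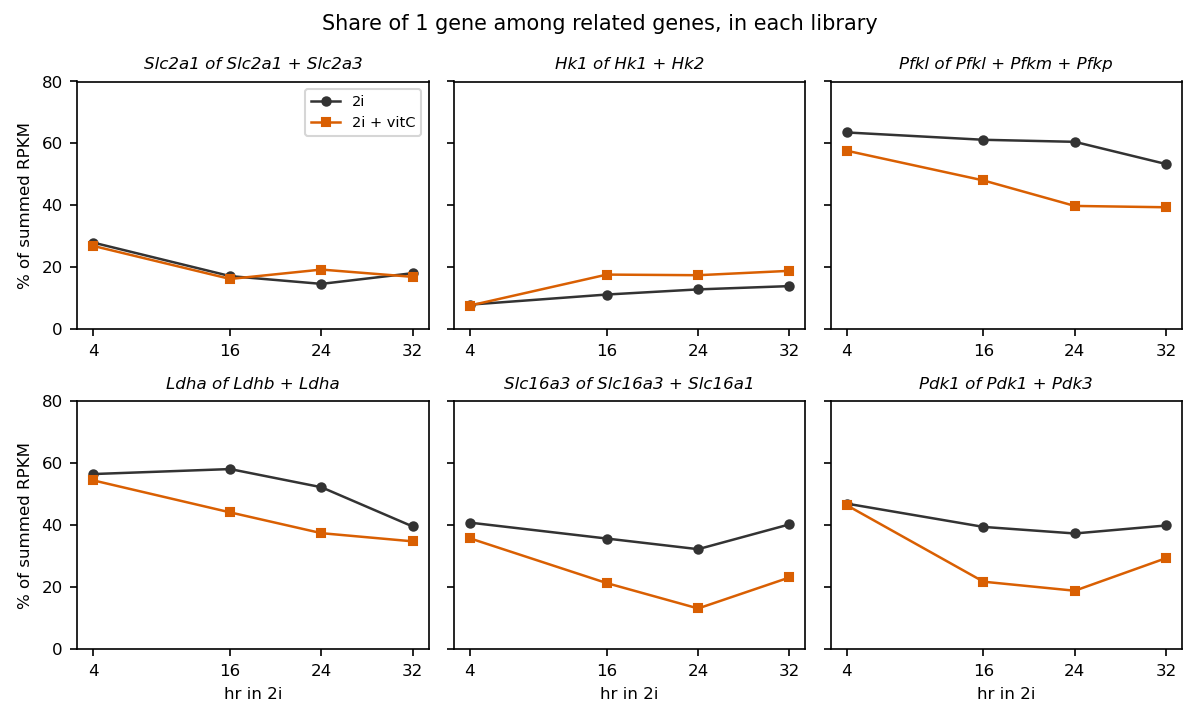
Share of 1 gene in the summed RPKM of related genes (percent) against hours in 2i, 1 library a point, without vitC (black circles) and with vitC (orange squares). Pfkl, Slc16a3, and Pdk1 hold a smaller share with vitC than in 2i at the 3 later times, and Hk1 a larger one.

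Other genes of the same pathways showed no call with vitC, a count that the 0.167% of all genes called would also give. These were 16 tested of 24 further genes of glucose uptake and glycolysis, 11 of 13 of lactate and pyruvate, 18 of 20 of the TCA cycle and its shuttles, 7 of 7 of the pentose phosphate pathway, and 8 of 8 of the HIF pathway. Their median fitted changes with vitC were -0.20, -0.12, -0.09, 0.02, and -0.00. The closest was Slc25a11, the oxoglutarate carrier, at -0.45 ± 0.11 (adjusted p = 0.0816). Of the pentose phosphate genes, Pgd, which makes NADPH, was at 0.66 ± 0.16 (adjusted p = 0.0866).

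Calls between 4 and 24 hr, which 20.5% of all genes had, were made for 1 of 16, 3 of 11, 4 of 18, 1 of 7, and 3 of 8 genes of these lists. Pgm2, of the phosphoglucomutase family, rose by 1.14 ± 0.16 (adjusted p = 0.000813), the one call among the 16 further glycolytic genes. Pdp2, the phosphatase that reopens pyruvate dehydrogenase, rose by 1.16 ± 0.17 (adjusted p = 0.000753) and Pck2 rose by 0.64 ± 0.15 (adjusted p = 0.012), whereas Pdp1 fell by 1.04 ± 0.27 (adjusted p = 0.0196). Among the 18 further genes of the TCA cycle and its shuttles, Slc25a1, the citrate carrier, rose by 0.90 ± 0.14 (adjusted p = 0.00149), and Acly, which splits that citrate in the cytosol, by 0.70 ± 0.13 (adjusted p = 0.00394). Sdhd and Me2 fell by 0.54 ± 0.15 and 0.51 ± 0.15 (adjusted p = 0.0213 and 0.0341). Pgd was the 1 call of 7 in the pentose phosphate pathway, with a rise of 0.96 ± 0.22 (adjusted p = 0.011).

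The transcripts of the HIF pathway itself did not pass with vitC. Hif1a, the alpha subunit that binds with Arnt, was at 251, 248, 212, and 234 CPM in 2i and 231, 218, 203, and 201 CPM with vitC, a fitted change of -0.15 ± 0.09 (adjusted p = 0.514). Egln1, the main prolyl hydroxylase gene, was at 34.5, 56.6, 39.6, and 44.9 CPM in 2i and 25.2, 23.5, 27.2, and 42.8 CPM with vitC, lower at each time, with a fitted change of -0.57 ± 0.17 (adjusted p = 0.145). Over time, Arnt rose by 0.64 ± 0.14 (adjusted p = 0.00739) and Epas1 by 1.32 ± 0.41 (adjusted p = 0.0385) between 4 and 24 hr, and Egln2 fell by 0.61 ± 0.17 (adjusted p = 0.0228). Transcript levels do not give the amount of HIF protein, which was not measured.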

How the data were processed

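Members and gene lists were chosen with earlier results of these data known. Per the labels and the submitters' processing notes, the authors aligned 50-base single-end reads with GSNAP (NCBIM37/mm9) counted them over Ensembl genes with HTSeq, and deposited these counts unscaled. The annotation, the use of strand, and the treatment of multi-mapping reads are not given in the sources used here. Symbols, merged exon lengths, and GC content came from GENCODE M21, in which 32604 of 37263 identifiers were found, and promoter windows came from RefSeq (GRCm38.p6, with 37 of 39 members matched).

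Here, a gene was kept if 2 or more libraries reached 1 CPM (14931 genes), and these were fitted with edgeR 4.0.16 (TMM factors, quasi-likelihood test in its legacy form, R 4.3.3) with additive terms for time and treatment, and p-values were adjusted by Benjamini-Hochberg with a threshold of 0.05. A standard error is the log2 change divided by the square root of F. A linear term in hours tested a change of the vitC effect. CPM and RPKM use the library totals times the TMM factors, and single libraries have 95% Wilson intervals and ratios exact binomial ones, for counting error only. Medians of ratios add 0.5 counts to each library. With 1 library per combination, p-values measure only how far both treatments depart from a shared course over time. The spread used for each gene is moderated towards a trend over all genes, so p-values also draw on other genes. Lanes were read from file names, and no libraries held identical values.

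Named genes are the members past the threshold for vitC or its change with hours, the largest rises and falls at 24 against 4 hr (at most 5 each), and 6 pairs of related genes (Slc2a1/Slc2a3, Hk1/Hk2, Ldha/Ldhb, Slc16a1/Slc16a3, Pdk1/Pdk3, Aldoa/Aldoc). Other members are given by ranges, counts, or single values. Tests on simulated counts recovered 95% of 2-fold and 100% of 4-fold vitC changes. They recovered 76% and 98% of those between 4 and 24 hr, and 4% and 59% of changes of the vitC effect with hours. The simulated counts followed the trended spread, without a spread of each gene's own. Each kind of change was planted alone, in genes above a minimum mean level, and the planted vitC change was equal at all times. The shares recovered therefore do not give the share of real changes that would be called.

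The other settings tried were DESeq2 1.42.0, RLE and upper-quartile scaling, no filter, a GC and length offset, 2 treatments of the Lars2 reads, thinning, single lanes, models without time or treatment, and omission of each time. The bias-adjusted form of the edgeR test was chosen after seeing the data.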

Additional observations from a re-analysis of the deposited data

How the results depend on the processing

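The number of members called with vitC was 2, and it was 8 with DESeq2, 13 without a filter on low counts, 1 with a GC and length offset, 4 with the Lars2 reads taken out, 0 with their share as a covariate, 6 after thinning, 7 in lane 7 alone, 0 in lane 8 alone, 0 without a time term, and between 0 (without the 16, 24, or 32 hr pair) and 12 (without the 4 hr pair) when a time was left out. The share of all genes called in each of these settings, and in those for time below, is not given here. A change in these counts therefore cannot be told apart from a change over all genes. Pfkl kept its direction in 16 of 16 alternatives (-1.12 to -0.75) and was called in 10, and Slc16a3 in 16 of 16 (-1.70 to -1.001) and was called in 9. Slc2a1 turned to 0.0092 in lane 8 alone. Between 4 and 24 hr the 10 calls became 0 with the Lars2 covariate and 6 without a treatment term. Between 4 and 16 hr the 7 became 1, 2, and, without the 32 hr pair, 4, with 7 as the most when a time was left out. Between 4 and 32 hr the 12 became 1 with the Lars2 covariate. Between 16 and 32 hr the 1 call became 3 with DESeq2, without a filter, in lane 7 alone, and with the bias-adjusted test, 2 with the covariate, and 1 to 2 when a time was left out. The Lars2 covariate reversed Slc2a1 (0.70), Slc16a3 (0.012), and Pdk1 (0.45) at 24 hr, Slc16a3 (0.20) and Pdk1 (0.32) at 16 hr, and Slc2a1 (0.55), Slc16a3 (0.30), Pdk1 (0.37), and Mdh2 (-0.40) at 32 hr. The cause was not tested, and this covariate overlaps with time and also with treatment. The Lars2 share was 0.206% in 2i and 7.11% with vitC at 16 hr, and 0.564% and 4.21% at 32 hr. At 4 hr it was 0.0277% and 0.0113%, and at 24 hr 5.92% and 6.37%. With the longest transcript as length, 11 instead of 5 members had a median of at least 100 RPKM. The slope of the vitC effect over hours was called for 0 members in every alternative run. In simulation this test missed most 2-fold and many 4-fold changes, so it does not show that the effect was constant. The labels carry no replicate numbers, so the only matching of libraries is that by time, which the vitC fit holds as a block. Depth limits the least abundant members most, since the smallest library holds 4753528 counts.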
